A study of Mus musculus with 18 samples.

Results

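A pair of groups of mouse embryonic fibroblasts with nearly the same expression profile was compared: cells labelled Ago2+/+ and treated with tunicamycin, and cells labelled Ago2-/- that received only the solvent DMSO. They hold 6 of the 18 libraries of the series, 3 in each group, and were chosen by the closeness of their expression, so that closeness is a description and not a result. Both are embryonic fibroblast lines obtained from another laboratory, and the study states that the lines were not authenticated, but that the knockout line was checked by western blot for loss of AGO2 protein. It describes its experiments as biologically replicated, while the labels do not tie the 3 libraries of a group to separate cultures. The other 4 groups are Ago2+/+ cells under DMSO or thapsigargin (500 nM, a drug that empties the calcium store of the endoplasmic reticulum, ER) and Ago2-/- cells under tunicamycin or thapsigargin. For 1 library of each group compared here the labels conflict on the genotype: replicate 2 of Ago2+/+ tunicamycin and replicate 3 of Ago2-/- DMSO. The values could not be computed without these libraries, because the deposited table holds 1 FPKM value per group, pooled by the authors over its replicates (FPKM, fragments scaled to transcript length and to the mapped fragments of the library). Hence no value below carries an SD, no difference has a replicate check and no p was computed. The depth of the libraries is unknown. In what follows, the tunicamycin group is Ago2+/+ tunicamycin and the DMSO group is Ago2-/- DMSO, each by its label.

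Tunicamycin blocks the first step of N-linked glycan synthesis, so that glycoproteins fail to fold in the ER. The unfolded protein response then works through 3 sensors: ATF6 and IRE1, the latter by splicing the Xbp1 mRNA, raise ER chaperones and the degradation machinery, and PERK raises translation of the transcription factor ATF4, which drives amino acid metabolism genes and the pro-apoptotic factor Ddit3 (CHOP). AGO2 is the Argonaute protein that cuts target RNA in RNA interference. The study examined whether it lowers mRNAs at the stressed ER.

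Of 51499 loci in the table, 11559 had a mean of at least 1 FPKM over the pair and were kept, after 6 loci on chromosome 1 that copy mitochondrial genes were left out. Differences are given as log2 ratios of the tunicamycin group over the DMSO group, after 1 FPKM was added to each value, and a locus was called when it was past 2-fold. By this rule 133 loci (1.15%) were called, 60 of them higher (0.519%) and 73 lower (0.632%) in the tunicamycin group. The median log2 ratio was 0.00, the quartiles were -0.08 and 0.09, and 90.3% of the loci lay within 1.2-fold. Across the kept loci, which are not independent replicates, Spearman's rho of both FPKM was 0.986. The same rule called 1.16% of loci between Ago2+/+ thapsigargin and Ago2-/- tunicamycin and 2.03% between Ago2-/- thapsigargin and Ago2+/+ DMSO, the other two close pairs, and between 13.4% and 18.6% in the 12 remaining pairs of groups. The plot of pooled expression shows the narrow band that most loci formed and the small RNA loci on its axes.

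**Figure D1:**
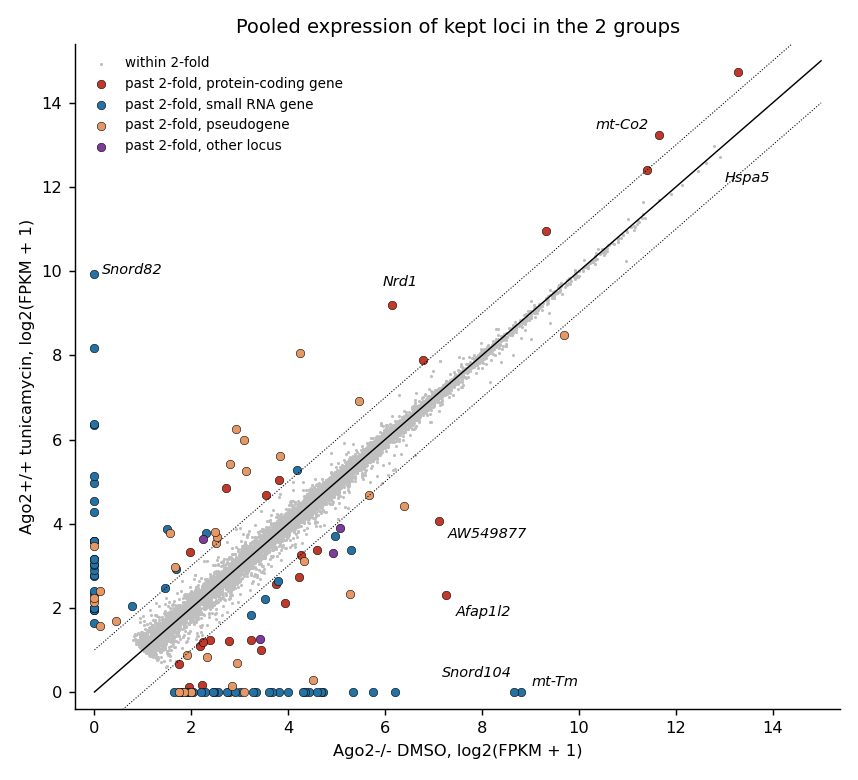
Pooled expression of the 11559 kept loci, as log2(FPKM + 1), in the DMSO group (x axis) and the tunicamycin group (y axis). Dotted lines mark 2-fold, and points past them are coloured by gene class. Most of the 133 loci outside the lines are small RNA genes, many of them at 0 in one group.

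Genes of the ER stress response differed little between the groups, as did most kept loci. In 4 lists covering ER chaperones, ER-associated degradation with XBP1, PERK and ATF4 targets, and N-glycan assembly, 68 loci were kept, none was past 2-fold, and 35 lay above 0. Of all kept protein-coding loci 0.276% were past 2-fold, and 51.1% of all kept loci lay above 0. These counts thus do not set the ER lists apart. The log2 ratios of the 68 loci ran from -0.58 to 0.30. Of 16 ER chaperones and folding enzymes, 11 lay above 0, with a median of 0.03. The median was 0.03 for 14 degradation genes, -0.04 for 20 PERK and ATF4 targets and 0.01 for 18 N-glycan genes, beside 0.00 over all kept loci. Whether a difference of this size exceeds the spread between replicates was not tested.

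Hspa5 encodes BiP, the main ER chaperone, and its promoter is a textbook target of the response. The RefSeq promoter of Hspa5 (GRCm38.p6, chr2:34771840-34772139, plus strand, 300 bases around the annotated start) is shown because it carries the element through which ATF6 and XBP1 act, with capitals marking matches to the motifs listed below:
Hspa5: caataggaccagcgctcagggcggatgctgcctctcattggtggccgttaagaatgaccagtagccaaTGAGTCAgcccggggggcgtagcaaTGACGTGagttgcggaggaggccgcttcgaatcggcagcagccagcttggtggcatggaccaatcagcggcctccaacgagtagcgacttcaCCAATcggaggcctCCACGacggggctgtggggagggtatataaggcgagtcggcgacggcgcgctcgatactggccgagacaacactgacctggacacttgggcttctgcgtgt
The ER stress response element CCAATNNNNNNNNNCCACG was found once, on the plus strand, with its first base at -65 from the start (only its 10 fixed bases are in capitals). It occurs in 39 of 32851 RefSeq promoters (0.119%). One TGACGTG (an XBP1 and ATF6 motif, in 2.01% of promoters) and one TGANTCA (the AP-1 motif, in 7.81%) were also matched, and TGACGTCA (the cyclic AMP response element, in 1.79%) was not. Motifs were read on both strands. TGACGTG and TGACGTCA share 6 bases, TGANTCA reads the same on both strands, and a match is a description of letters only.

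Hspa5 was at 6746 FPKM in the tunicamycin group and 7682 in the DMSO group (log2 ratio -0.19), the highest values of the 6 groups, which otherwise held 3677 to 5367. Ddit3 was at 282 under tunicamycin and 339 under DMSO (log2 ratio -0.26), and Atf4 at 528 and 532 (-0.01). For both genes the tunicamycin value was the lower one. Herpud1, an adaptor of ER-associated degradation, was at 349 and 334 (0.06). Xbp1 was at 74.9 and 88.4 (-0.24), the largest difference of its list. These gene totals do not separate spliced from unspliced Xbp1.

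Single members of these lists lay farther from 0 in either direction. Ero1l, an oxidase that restores protein disulphide isomerase and is also raised by hypoxia, was at 57.2 FPKM under tunicamycin and 85.8 under DMSO (-0.58). Slc7a11, the cystine transporter of the ATF4 list, was at 18.5 and 26.3 (-0.49). Creld2, an ER-resident chaperone, was at 394 and 321 (0.30), and Trib3, a pseudokinase induced by CHOP, at 146 and 119 (0.29). Among glycosylation genes Alg5, the dolichyl-phosphate glucosyltransferase, lay farthest from 0 (29.4 and 33.3, -0.17). Dpagt1, the enzyme that tunicamycin inhibits, was at 17.6 and 18.1 FPKM (-0.04). The plot of list members shows the 4 lists around 0.

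**Figure D2:**
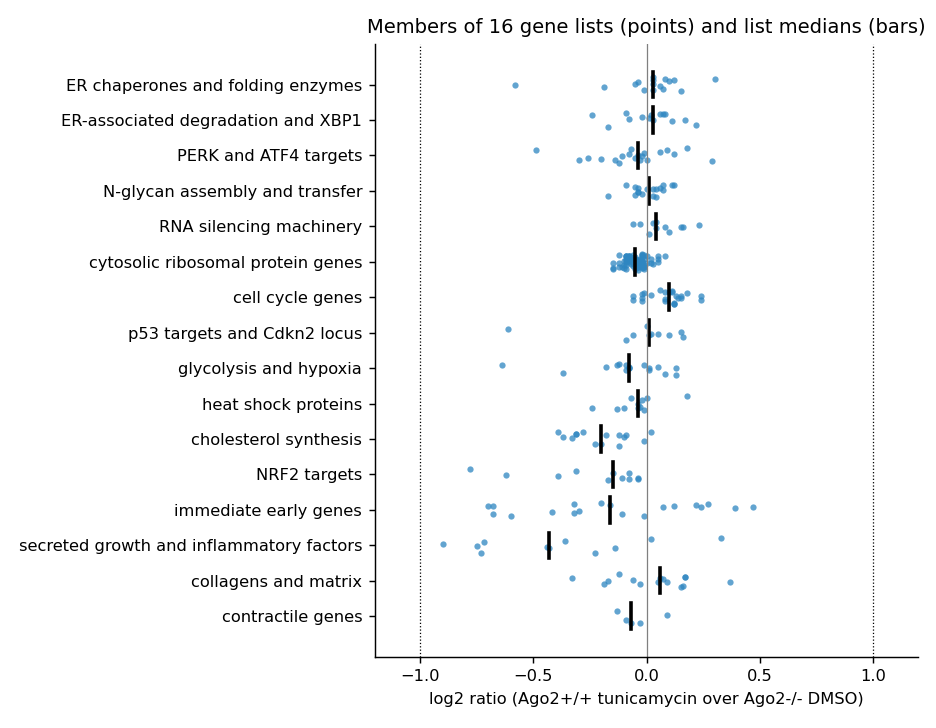
Log2 ratio of each kept member (points) of 16 gene lists, tunicamycin group over DMSO group, with the list median (bar); dotted lines mark 2-fold. No member of these lists passed 2-fold, and of all kept protein-coding loci 0.276% did. The 4 ER lists at the top sat around 0, and the medians of secreted factors (-0.43) and cholesterol synthesis (-0.20) lay farthest below it.

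The targeted gene did not separate the groups. Ago2 was at 5.75 FPKM under the label Ago2+/+ tunicamycin and 5.61 under Ago2-/- DMSO (0.03), while the other 4 groups, of both labelled genotypes, held 15.5 to 22.1. The mRNA total thus did not separate the labelled genotypes. It does not show which allele the reads came from or how much AGO2 protein was present, and every direction here rests on the labels. Of 11 kept genes of the RNA silencing machinery 9 lay above 0, with a median of 0.04. Ago3, a further Argonaute, differed most (8.72 under tunicamycin and 7.31 under DMSO, 0.23), and Dicer1, which cuts small RNA precursors, was at 32.0 and 32.7 (-0.03).

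Of the 4 transcripts that the study followed, 3 were under 1 FPKM in both groups. Mertk, a receptor tyrosine kinase, was at 0.782 FPKM under tunicamycin and 0.597 under DMSO, C1rl, a complement-like protease, at 0.267 and 0.161, and Nov, a matricellular protein, at 0.0906 and 0.0615. Rpl19, a ribosomal protein used as reference, was at 1467 and 1475. On the Y chromosome, Uty, Kdm5d, Ddx3y and Eif2s3y had a value of 0 in either group. Each was expressed in Ago2-/- tunicamycin and Ago2+/+ thapsigargin (Eif2s3y at 30.3 and 32.3 FPKM) and at 0 in the remaining groups. The locus that holds Xist, the RNA that silences one X chromosome, was at 0.0574 and 0.0105 FPKM. It was at 33.5 in Ago2-/- thapsigargin and 46.6 in Ago2+/+ DMSO, against 0.00612 in Ago2-/- tunicamycin and 0.0102 in Ago2+/+ thapsigargin. These patterns followed neither the labelled genotype nor the labelled treatment, and their source was not tested.

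Fibroblast identity was examined with marker genes. Vim, the intermediate filament protein of mesenchymal cells, was at 2634 FPKM under tunicamycin and 2580 under DMSO. Col1a1, the main fibrillar collagen chain, was at 6.77 and 5.97, below the 87.1 to 651 of the other groups, and the surface marker Thy1 was listed at 0 in all 6. In all, 5 of 8 fibroblast markers were kept and each of these lay between 0.03 and 0.20. The 5 endothelial, 5 epithelial, 5 skeletal muscle and 4 adipocyte markers on the lists used were under 1 FPKM in both groups. Genes outside these lists that are known from muscle or squamous epithelium, Myf5 and Sprr1a, were expressed and are described below. Of 7 macrophage markers only Cd14 (14.4 and 16.7 FPKM) and Cd68 (1.13 in each) were kept, and Adgre1 and C1qa were at 0.

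Groups of genes outside the ER response differed by small amounts in one direction. All 11 kept targets of NRF2, the regulator of the antioxidant response, lay below 0 (median -0.15), where 51.1% of all kept loci lay above it. Gclm, a subunit of the glutathione-making enzyme, was at 438 under tunicamycin and 674 under DMSO (-0.62), and Hmox1, haem oxygenase, at 206 and 256 (-0.31). The Gclm locus takes in a further annotated gene. Its log2 ratio was 0.88 in Ago2+/+ thapsigargin over Ago2-/- tunicamycin and -0.68 in Ago2-/- thapsigargin over Ago2+/+ DMSO. Mt2 differed most (165 and 285, -0.78). It encodes a metallothionein, a metal-binding protein that answers to metals more than to NRF2, and its neighbour Mt1 was at 189 and 195 (-0.04). In the other two close pairs, which share no group with this one, 5 of 11 and 6 of 10 kept members lay above 0.

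Cholesterol synthesis genes showed the same sign. Of 15 kept, 14 lay below 0, with a median of -0.20. Idi1, an isomerase of the isoprenoid path, was at 26.2 FPKM under tunicamycin and 34.5 under DMSO (-0.39). Insig1, the ER protein that retains the SREBP activator, was at 18.6 and 24.2 (-0.37). Mvk was the exception (15.8 and 15.6, 0.02). This list lay below 0 in the other two close pairs as well: 15 of 15 in Ago2+/+ thapsigargin over Ago2-/- tunicamycin, median -0.38, and 13 of 15 in Ago2-/- thapsigargin over Ago2+/+ DMSO, median -0.18.

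Among the lists drawn in the plot of list members, secreted factors had the median farthest from 0. Of 11 kept secreted growth and inflammatory factors 9 lay below 0, with a median of -0.43, which was -0.15 when members of any level were included. Areg, an EGF receptor ligand, was at 34.8 under tunicamycin and 65.8 under DMSO (-0.90), and at 0.263 to 7.05 in the other groups. Spp1, the secreted phosphoprotein osteopontin, was at 1214 and 2015 (-0.73), with 16.02 to 461 elsewhere. For both genes the 2 values of this pair were the highest of the 6 groups. Cxcl12, a chemokine, was the member farthest above 0 (244 and 194, 0.33).

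Immediate early genes were divided. Of 19 kept, 12 lay below 0 and the median was -0.16, or -0.06 among members of at least 5 FPKM. Junb (34.0 under tunicamycin and 56.1 under DMSO, -0.70) and Fos (4.99 and 8.59, -0.68), both AP-1 subunits, were lower, as was Egr1, a zinc-finger factor induced by ERK signalling (31.0 and 50.3, -0.68). Dusp1, a MAP kinase phosphatase, was at 15.8 and 11.1 (0.47), and Ctgf, a YAP target, at 17.9 and 13.4 (0.39). Levels of Myc differed little (147 and 140, 0.07).

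Other lists lay closer to 0. Of 24 cell cycle genes 18 lay above 0 (median 0.10), with Plk1, a mitotic kinase, at 74.1 FPKM under tunicamycin and 62.6 under DMSO (0.24) and the proliferation marker Mki67 at 66.8 and 56.2 (0.24). Of 81 cytosolic ribosomal protein genes 74 lay below 0, though with a median of -0.05 and no member beyond -0.15 on that side. In Ago2+/+ thapsigargin over Ago2-/- tunicamycin 80 of the 81 lay above 0, with a median of 0.28. Glycolysis and hypoxia genes had 11 of 17 below 0 (median -0.08). Gapdh, often used as a reference gene, was at 254 and 397 (-0.64), whereas Eno1 (1474 and 1351, 0.13) and Pkm (1470 and 1417, 0.05) of the same pathway were not lower. For Gapdh the log2 ratio was 0.75 in Ago2+/+ thapsigargin over Ago2-/- tunicamycin and 0.2 in Ago2-/- thapsigargin over Ago2+/+ DMSO. The p53 list had 6 of 10 above 0 (median 0.01), with Cdkn1a, the inhibitor p21, at 19.6 and 30.3 (-0.61).

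Matrix, contractile, chaperone and antiviral lists held no called member either. Only 0.276% of all kept protein-coding loci were called, so this absence does not set such short lists apart. Collagen and matrix genes had 9 of 15 above 0 (median 0.06), Col5a2 lying highest (11.9 under tunicamycin and 8.94 under DMSO, 0.37). Of 11 cytosolic and mitochondrial heat shock genes 2 lay above 0 (median -0.04), with Hspa1b, an inducible HSP70, at 3.07 and 3.81 (-0.24). Contractile genes had 1 of 5 above 0 (median -0.07), and Cald1, caldesmon, was at 304 and 332 (-0.13). Of 16 interferon-stimulated genes 5 were kept (median -0.02), Isg15 lying farthest from 0 (0.881 and 1.43, -0.37). Of replication-dependent histone genes 10 were kept (median 0.00), with Hist1h4k at 0.498 and 1.76 (-0.88).

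Protein-coding loci made up 9767 of the kept loci and 27 of the called ones (0.276%), 10 higher and 17 lower. Among 6651 protein-coding loci of 1 gene symbol with a mean of at least 10 FPKM, a limit set after the values were seen, 15 were at least 1.5-fold higher and 25 at least 1.5-fold lower (0.601% in all). Besides genes named above, the lower ones included Dusp5, a phosphatase of nuclear ERK (20.0 under tunicamycin and 35.1 under DMSO, -0.78), Igfbp4, a binding protein of insulin-like growth factors (10.6 and 18.6, -0.75), Osmr, the oncostatin M receptor (14.3 and 22.9, -0.65), and Ifi202b, an interferon-inducible gene (42.2 and 66.9, -0.65). The higher ones included Cyp1b1, a cytochrome P450 (132 and 77.1, 0.77), Filip1l (30.7 and 18.8, 0.67) and Myf5, the myogenic factor (18.9 and 11.8, 0.64). Myf5 was listed at 0 in the other 4 groups.

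Nrd1, Il31ra, Afap1l2 and AW549877 were the protein-coding loci with the 2 highest and 2 lowest ratios. Their RefSeq promoters (GRCm38.p6) are shown to set the extremes of the pair beside Hspa5, with motif matches in capitals as above. They lie at chr4:109000405-109000704 (plus strand), chr13:112580613-112580912 (minus), chr19:57008526-57008825 (minus) and chr15:3995697-3995996 (minus).
Nrd1: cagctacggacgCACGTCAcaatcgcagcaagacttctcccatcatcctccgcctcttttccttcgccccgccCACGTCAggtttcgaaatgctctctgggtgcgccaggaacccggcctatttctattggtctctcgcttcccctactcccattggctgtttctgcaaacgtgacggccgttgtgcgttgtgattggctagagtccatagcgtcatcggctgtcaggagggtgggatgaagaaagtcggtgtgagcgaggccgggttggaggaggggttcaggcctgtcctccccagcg
Il31ra: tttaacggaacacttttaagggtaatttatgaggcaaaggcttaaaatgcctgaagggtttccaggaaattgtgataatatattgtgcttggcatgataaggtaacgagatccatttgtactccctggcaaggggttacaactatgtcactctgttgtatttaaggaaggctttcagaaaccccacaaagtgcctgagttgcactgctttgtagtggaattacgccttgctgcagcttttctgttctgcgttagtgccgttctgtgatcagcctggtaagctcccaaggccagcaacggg
Afap1l2: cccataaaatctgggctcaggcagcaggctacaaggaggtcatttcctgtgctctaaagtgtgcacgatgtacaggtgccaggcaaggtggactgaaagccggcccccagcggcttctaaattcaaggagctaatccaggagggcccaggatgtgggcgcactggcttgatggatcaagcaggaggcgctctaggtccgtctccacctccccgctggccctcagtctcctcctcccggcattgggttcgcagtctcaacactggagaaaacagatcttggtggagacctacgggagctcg
AW549877: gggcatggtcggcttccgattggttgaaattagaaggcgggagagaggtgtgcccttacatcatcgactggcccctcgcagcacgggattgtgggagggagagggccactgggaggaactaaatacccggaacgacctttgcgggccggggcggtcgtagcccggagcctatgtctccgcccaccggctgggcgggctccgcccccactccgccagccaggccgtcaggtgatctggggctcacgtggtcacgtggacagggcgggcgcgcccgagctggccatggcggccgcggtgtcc
Nrd1 held 2 matches to TGACGTG, both on the minus strand (capitals), with first bases at -238 and -177, and the other 3 promoters held no match to any of the 4 motifs. The GC content was 59.0% in Nrd1, 44.7% in Il31ra, 58.3% in Afap1l2 and 68.3% in AW549877, against 61.3% in Hspa5.

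Afap1l2, an adaptor protein of SRC signalling, had the lowest ratio of any protein-coding locus. It was at 152 FPKM in the DMSO group, 3.92 in the tunicamycin group, 1.33 in Ago2-/- tunicamycin, 1.24 in Ago2+/+ thapsigargin, 0.0253 in Ago2-/- thapsigargin and 0.0485 in Ago2+/+ DMSO. A single group thus held nearly all of its signal. The fold between the groups of the pair was 38.8 (log2 ratio -4.96).

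Nrd1, which encodes the peptidase nardilysin, was the mirror case. It was at 582 FPKM in the tunicamycin group and between 45.9 and 71.4 in the other 5 groups, including 69.7 in the DMSO group (8.36-fold). The Nrd1 locus of the table also takes in a microRNA gene, Mir761, of 76 nt. AW549877, at 136 FPKM in the DMSO group, 15.7 in the tunicamycin group and 12.1 to 32.1 elsewhere, takes in the pseudogene Gm49286, whose transcript has 102 nt. Il31ra, a subunit of the interleukin 31 receptor (27.7 and 5.58 FPKM), takes in the pseudogene Gm3226. It reached 32.1 in Ago2+/+ thapsigargin and 7.72 to 11.5 in the other 3 groups.

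Such mixed loci were common among the called ones. Of 367 nuclear protein-coding loci that take in further annotated genes 7 were called (1.91%), against 16 of 9390 loci with a single gene (0.17%). Beyond the 3 just named they were St7 (31.7 under tunicamycin and 13.0 under DMSO, with 3 short non-coding genes inside), Esrra, an orphan nuclear receptor (24.5 and 10.7, with Mir6990), Ccnb1ip1 (3.36 and 14.4, with Rpph1, the RNA of RNase P) and Cd74, the invariant chain (1.31 and 5.86, with Mir5107). Reads of the host and of the gene inside cannot be told apart in a locus total.

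Of the 16 called loci with a single gene, 14 were lower and 2 higher in the tunicamycin group. The higher ones were Eno1b, a retrotransposed enolase gene (238 and 109 FPKM), and 2210418O10Rik (8.97 and 2.93). Eno1b closely resembles Eno1 in sequence, so that its reads are uncertain. Among the lower ones Fas, the death receptor, was at 1.34 under tunicamycin and 4.19 under DMSO (-1.15), Casp4, an inflammatory caspase, at 0.592 and 2.33 (-1.07), and Bach2, a transcriptional repressor, at 1.13 and 3.50 (-1.08). Sprr1a, a protein of the cornified envelope, was at 9.38 and 23.1 (-1.21), and at 0.215 to 1.65 in the other 4 groups. Car6, a secreted carbonic anhydrase, was at 5.63 and 17.8 (3.16-fold). Rnaset2b, an acid ribonuclease gene with a near-identical neighbour, was at 4.90 and 12.4 (-1.18), Gm16867 was at 5.88 in the DMSO group and listed at 0 in the tunicamycin group, and Npn2 was at 1.28 and 3.76 (-1.06). The table gives Npn2 and Cald1 the same span, so that reads of either cannot be told apart with certainty.

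Afap1l2 is described above, and 5 further single-gene loci lay in 2 neighbourhoods. On chromosome 6, within 200 kb, lay Usp39, a splicing factor (72318678 to 72345184), Vamp8, a vesicle fusion protein (72385223 to 72390703), and Mat2a, which makes S-adenosylmethionine (72432799 to 72440610). Usp39 was at 2.85 FPKM in the DMSO group, 0.0912 in the tunicamycin group and at most 0.190 elsewhere. Vamp8 was at 3.65, 0.115 and at most 0.265. Mat2a was at 18.2 and 8.55, and between 0.476 and 9.31 elsewhere. The genes between them, Tmem150a, Rnf181 and Ggcx, were under 1 FPKM in both groups, as was Particl, which shares the span of Mat2a. On chromosome 9 lay Ip6k2, an inositol phosphate kinase (108783796 to 108806337; 8.35 FPKM under DMSO, 1.36 under tunicamycin, 2.44 to 4.46 elsewhere), and Uqcrc1, a core subunit of respiratory complex III (108936633 to 108949623; 9.87 under DMSO, 0.996 under tunicamycin, 0.550 to 1.08 elsewhere). For all 5 genes the DMSO group held the highest value of the 6 groups. Usp39 and Vamp8 were under 1 FPKM in every other group. Whether such low values are expression levels or failed estimates was not tested. The coordinates are those of the loci in GRCm38.

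**Figure D3:**
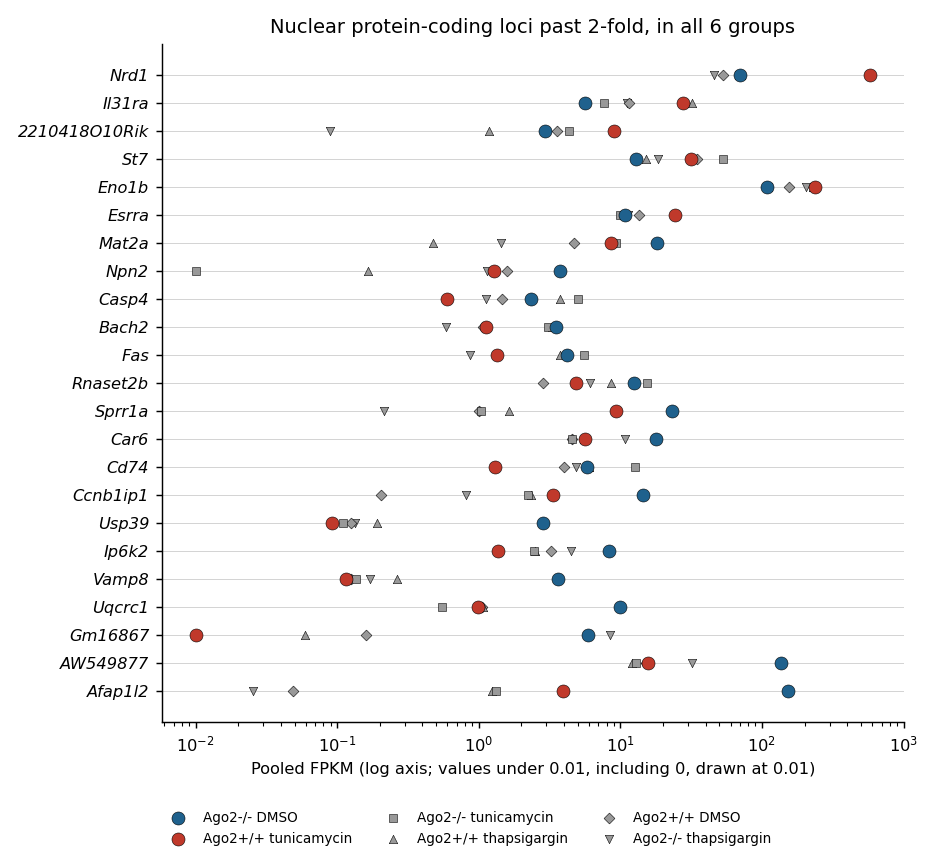
Pooled FPKM on a log axis of the 23 nuclear protein-coding loci past 2-fold, with the DMSO group in blue, the tunicamycin group in red and the other 4 groups in grey; values under 0.01 are drawn at 0.01. Afap1l2 (152 FPKM) and Nrd1 (582 FPKM) each stand out in a single group.

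Called loci differed in which group of the pair stood apart from the other 4 groups. For 42 of the 133 called loci only the tunicamycin value lay outside the range of the other 4 groups, for 52 only the DMSO value did, for 20 both did and for 19 neither did. Among the 27 protein-coding loci these counts were 8, 8, 8 and 3. The same counts were not made over all kept loci. A 2-fold gap within the pair by itself makes a value outside that range more likely, so the counts are a description.

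The 4 mitochondrial protein-coding loci with a copy of at least 63.6% of a gene on chromosome 1 were past 2-fold and higher in the tunicamycin group, and none of the other protein-coding ones was past 2-fold. A stretch of chromosome 1 repeats part of the mitochondrial genome in 7 annotated pseudogenes. In the GENCODE transcripts these were 98.8% to 100% identical to their source, and 5 of the 7 did not differ from it by a base. The first 80 bases of mt-Nd3 (chrM:9459-9538, plus strand) and of its copy Gm28438 (chr1:24613040-24613119, minus strand) are shown because they hold the 1 base that sets both apart, in capitals:
mt-Nd3: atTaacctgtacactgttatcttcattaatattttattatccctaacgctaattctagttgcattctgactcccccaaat
Gm28438: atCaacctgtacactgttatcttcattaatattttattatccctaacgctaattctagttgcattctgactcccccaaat
Reads of such pairs can be placed in either locus.

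The copies had been left out of the counts above, and their values went the opposite way. Gm28661, a copy of mt-Co2, was at 2264 FPKM in the DMSO group and 3.41 in the tunicamycin group, and Gm28438 at 527 and 1.11. Over the 6 copy loci the DMSO group held 527 to 2499 FPKM and the tunicamycin group 1.11 to 3.96. Each copy was also high in Ago2-/- tunicamycin and Ago2+/+ DMSO (66.2 to 642) and low in both thapsigargin groups (1.06 to 4.36), so that in all 3 close pairs one group held the copies high and the other low.

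The genes themselves went the other way. mt-Co2, a subunit of cytochrome oxidase, was at 9666 FPKM in the tunicamycin group and 3214 in the DMSO group (1.59). mt-Nd3, a complex I subunit, was at 1983 and 642 (1.63), the joint locus of mt-Atp6, mt-Atp8 and mt-Co3 at 27101 and 9940 (1.45), and that of mt-Nd4 and mt-Nd4l at 5446 and 2711 (1.01). Without a copy, mt-Nd1 was at 5346 and 5647 (-0.08), mt-Nd2 at 2442 and 2638 (-0.11), mt-Nd5 at 1185 and 1212 (-0.03), mt-Cytb at 4233 and 4478 (-0.08) and mt-Nd6 at 128 and 158 (-0.30). mt-Co1, of which the copy covers 31.8%, was at 8051 and 7101 (0.18). The FPKM of the copies was then added to that of the genes, without weighting by transcript length. The log2 ratio became 0.82 for mt-Co2, 0.76 for mt-Nd3, 0.94 for the mt-Atp6 locus, 0.39 for the mt-Nd4 locus and -0.06 for mt-Co1. The copies of mt-Co1 and mt-Nd4 are shorter than the genes (492 against 1545 nt and 876 against 1378 nt). FPKM is scaled to length, so the sign for mt-Co1 cannot be read from this sum. The part of read placement in these ratios was not tested.

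**Figure D4:**
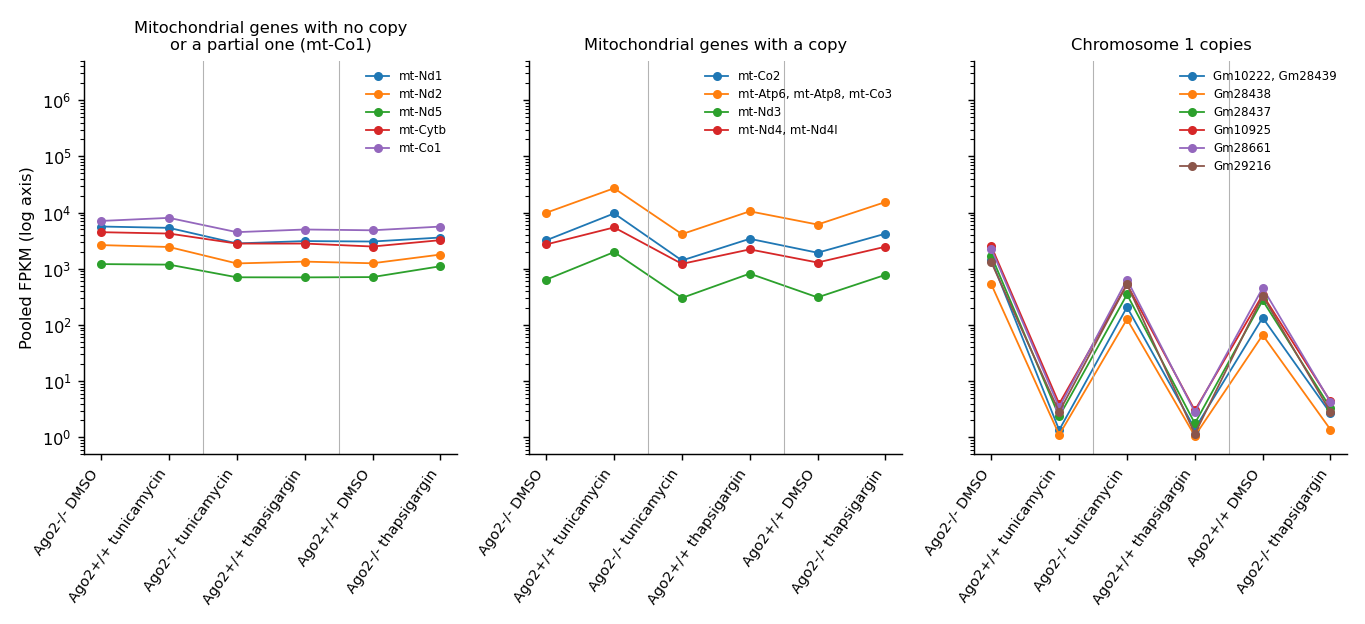
Pooled FPKM on a log axis of mitochondrial genes without a full copy (left), with a copy (middle) and of the chromosome 1 copies (right) in all 6 groups; lines join the values of a locus, and grey lines separate the 3 close pairs. Within each pair the group with copies near 1 to 4 FPKM holds the higher values of the genes with a copy.

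Small RNA loci, a class that here includes mitochondrial tRNA and rRNA genes, gave 70 of the 133 calls. Of 121 kept, 31 were called higher and 39 lower (57.9%), against 3.39% of 945 pseudogenes and none of 377 long non-coding and unclassified loci. By length, 80 of 139 kept loci without a transcript of 200 nt or more were called (57.6%), 23 of 1203 with a longest transcript of at least 200 but under 1000 nt (1.91%) and 25 of 9865 with 1000 nt or more (0.253%). Of the 133 called loci 67 were listed at 0 in one group, 28 of them in the DMSO group and 39 in the tunicamycin group, and 59 of these were small RNA genes. No fold is given for them, since the table holds no counts and an exact 0 can be a failed estimate.

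Snord82 and Snord104, guide RNAs of the box C/D family that direct ribose methylation of ribosomal RNA, illustrate these calls in both directions. Both mature transcripts have 70 nt and are given in full (GENCODE, GRCm38; chr1:86356261-86356330, minus strand, and chr11:106500993-106501062, plus strand):
Snord82: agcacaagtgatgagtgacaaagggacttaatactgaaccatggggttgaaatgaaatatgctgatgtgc
Snord104: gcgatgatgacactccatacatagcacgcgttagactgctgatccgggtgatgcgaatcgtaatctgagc
Snord82 was at 971 FPKM in the tunicamycin group and listed at 0 in each of the other 5. Snord104 was at 406 in the DMSO group, 106 in Ago2-/- thapsigargin and 0 elsewhere.

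Further loci of this kind followed the same pattern of presence in some groups only. The mitochondrial tRNA gene mt-Tl1 was at 289 FPKM in the tunicamycin group and 0 in the DMSO group, with 296 in Ago2-/- tunicamycin and 141 in Ago2-/- thapsigargin. Another, mt-Tm, was at 449 in the DMSO group and 0 in the other 5. Higher in the tunicamycin group, and listed at 0 in the DMSO group, were Snord35a (81.6), Gm25083 (80.4), Gm22170 (33.9), Snord43 (30.4), Gm22645 (22.1), Gm26496 (18.4) and Gm22618 (11.0). At 0 in the tunicamycin group were Snord83b (73.1 under DMSO), Rny3, a Y RNA (53.02), Gm26324 (39.3), Gm22935 (25.2), Gm22392 (24.7), Gm23136 (23.0) and Snord89 (20.4). Small nucleolar RNAs lie in introns of other genes, and no source used here states whether counting was strand-specific.

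Pseudogenes gave 32 calls, 18 higher and 14 lower. Gm7336 was at 265 FPKM in the tunicamycin group, 17.97 in the DMSO group and 11.9 to 51.6 elsewhere (14.8-fold). Rpl7a-ps11, a copy of a ribosomal protein gene, was at 359 and 828, and Rps6-ps3 at 0.0976 and 6.20, where the other 4 groups held 5.32 to 11.6. Of 89 kept ribosomal protein pseudogenes 2 were called higher and 3 lower, where 3.39% of all kept pseudogenes were called. None of the 81 kept cytosolic ribosomal protein genes was called. The median was -0.05 in both lists.

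The spread of the ratios narrowed with expression up to 100 FPKM. The middle 95% of loci spanned -0.71 to 0.48 at 1 to 3 FPKM, -0.45 to 0.40 at 3 to 10, -0.31 to 0.30 at 10 to 30, -0.25 to 0.23 at 30 to 100 and -0.29 to 0.24 above. The share past 2-fold was 2.71% in the lowest class, 0.411% at 30 to 100 FPKM and 1.14% in the highest. Called loci of the highest class were mitochondrial ones and also Nrd1, Eno1b, Gm7336, Rpl7a-ps11, Snord82 and Snord104. The share without the mitochondrial loci was not computed. On the high side Gm4613 (10.6 under tunicamycin and 4.72 under DMSO) and Snora47 (4.58 and 1.73) were just inside, and Gm16550 (13.7 and 6.61) and AC154636.1 (30.7 and 16.2) just outside. On the low side Mat2a was just inside, and Gm24205 (48.6 and 97.4) and Gm6063 (30.5 and 59.9) just outside.

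**Figure D5:**
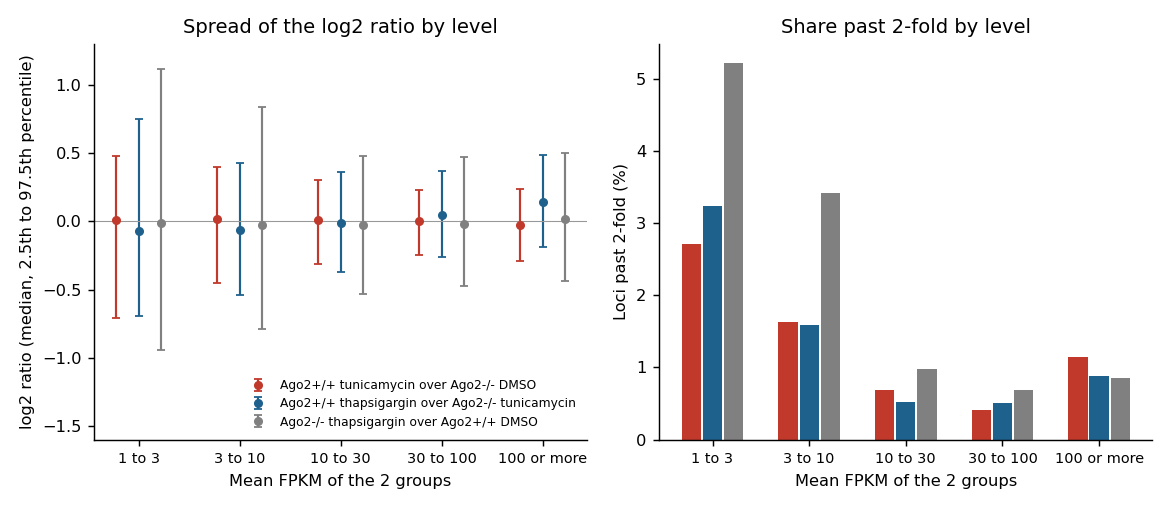
Left, median log2 ratio and range of the middle 95% of loci (bars), by mean FPKM, in the 3 close pairs; right, the share of loci past 2-fold. In the pair of tunicamycin and DMSO (red) the middle 95% of loci at 30 to 100 FPKM lay between -0.25 and 0.23.

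Taken over all loci, ratios in this pair did not follow those of the other close pairs, with which it shares no group. Across loci, Spearman's rho of the log2 ratios was -0.059 with Ago2+/+ thapsigargin over Ago2-/- tunicamycin (10815 loci) and -0.021 with Ago2-/- thapsigargin over Ago2+/+ DMSO (10797 loci), both as descriptions. Of the called loci that also reached 1 FPKM in the first of these, 36 of 74 were past 2-fold there as well, 21 in the same and 15 in the opposite direction. In the second it was 35 of 78, with 17 and 18. Of all loci kept in these 2 pairs, 1.16% and 2.03% were past 2-fold, so called loci were past it there more often. Small RNA genes gave 21 of the 36 and 19 of the 35. The protein-coding loci past 2-fold in all 3 pairs were mt-Co2, mt-Nd3, the mt-Atp6 locus, Mat2a and 2210418O10Rik. The first 3 were higher each time in the group with low copies, Mat2a was lower in all 3, and 2210418O10Rik was higher here and lower in both others. Afap1l2 was at -0.06 in the first and under 1 FPKM in both groups of the second, and Nrd1 was at 0.06 and -0.21.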

How the data were processed

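RNA-seq libraries of mouse embryonic fibroblasts, 3 in each of 6 groups, were analysed from 1 deposited table. Per the submitters' processing notes, the authors used FastQC 0.11.7, HISAT2 2.1.0, StringTie 1.3.4d and Cuffdiff 2.2.1 with GRCm38; neither scaling nor strand handling is given in the sources used here. Each deposited FPKM is 1 value per locus and group, pooled by the authors over replicates. Columns with the authors' fold changes, test statistics, p and q were not used. The pair, its members and the gene lists were chosen with earlier results of these data known. Libraries were grouped by title, since 2 in the pair carry conflicting genotype labels. Titles of the groups called Ago2+/+ here begin with DCR1, and those of the groups called Ago2-/- with AGO2. The titles themselves thus do not name an Ago2+/+ genotype.

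Log2 ratios used a pseudocount of 1 FPKM where the mean of both groups reached 1 FPKM, and calls a 2-fold difference. With 1 value per group no test was made and no interval can be given; the number of libraries limits the precision. The computation of the calls was checked for errors on artificial data only. The reliability of the calls was not tested. A list took the locus that holds its symbol alone, the highest where several did; ribosomal S6 kinases matched by name were left out. Gene classes came from RefSeq by symbol, else from GENCODE vM21 by Ensembl ID (11550 of 11559 loci). Named were the 10 highest and 10 lowest called loci of 1 symbol, up to 12 protein-coding loci each way (8 higher and 12 lower), the extreme member of each list, fixed control genes and the loci next to the threshold; other genes were picked after their values were seen, and some loci are not reported here. Alternatives covered pseudocount, filter, scaling, centring, threshold and locus type. Python 3.11.15, pandas 2.3.3, scipy 1.17.1 and matplotlib 3.10.9 were used.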

Additional observations from a re-analysis of the deposited data

How the results depend on the processing

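No paired analysis was possible because the table holds 1 value per group, pooled over its libraries; for the same reason no library could be left out. The 60 loci called higher and 73 called lower became 37 and 37 with a mean of at least 5 FPKM, and 100 and 148 at 1.5-fold. Under alternatives chosen after the data were seen they were 24 and 28 among loci with an annotated transcript of at least 200 nt, and 15 and 25 among protein-coding loci of at least 10 FPKM at 1.5-fold. Pseudocounts of 0.1 and 0.01 FPKM, no filter, rescaling to the same sum, centring, leaving out loci of several genes and keeping the chromosome 1 copies moved each count by less than 1.5 times. Spearman's rho of the pair and of its ratios with the other two close pairs moved by less than 0.05 under every alternative run for them. Of 168 list medians recomputed, 7 moved by 0.1 or more. Immediate early genes moved to -0.06 with a mean of at least 5 FPKM. Without a filter, secreted factors moved to -0.15, fibroblast markers to 0.06 and macrophage markers to 0.00. The remaining moves were in a list of small RNA genes matched by symbol (29 kept loci), not the class of 121 described above. Its median went from -0.33 to -0.51 under both other pseudocounts and to -0.08 with a mean of at least 5 FPKM. Depth is unknown, so a difference at low FPKM cannot be weighed against counting error.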
